A study of Mus musculus with 7 samples.

Results

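The proteasome genes described here are the subunits of the constitutive 26S proteasome and its numbered companions. They were taken from the deposited expression table as every protein-coding gene named Psma, Psmb, Psmc or Psmd with a number, leaving out the immunoproteasome subunits Psmb8, Psmb9 and Psmb10. This gave 36 genes of the 46671 in the table. Of these, 8 are Psma genes, 8 are Psmb genes, 6 are Psmc genes and 14 are Psmd genes. The libraries came from mouse intestinal epithelium labelled as colorectal, from BALB/C animals of 8 weeks. The 4 cKO libraries came from mice without the kinase MST3 (gene Stk24) in their intestinal epithelial cells, and the 3 Ctrl libraries came from wild-type mice. The labels name no Cre driver and do not say whether RNA of several mice was pooled. A treatment with the agents AOM and DSS appears in the design text, while the labels of all 7 libraries state that no drug was given.

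The proteasome is the barrel-shaped protease that degrades ubiquitin-tagged proteins in the cytosol and nucleus. Its core particle is a stack of rings: outer rings of alpha subunits (Psma), which form the gate, and inner rings of beta subunits (Psmb), of which Psmb5, Psmb6 and Psmb7 carry the catalytic sites. The regulatory particle on top has a base, with a ring of ATPases (Psmc) that unfolds substrates, and a lid. Several Psmd subunits bind ubiquitin or remove it, and Psmd5, Psmd9 and Psmd10 are assembly chaperones of the base rather than subunits of the finished particle. In mammalian cells the transcription factor Nfe2l1 (also called NRF1) raises subunit genes together when proteasome activity falls short, through antioxidant response elements in their promoters.

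Of the 36 genes, 34 were read in every library and passed the level required for testing. Psma8, the alternative alpha subunit of spermatogenic cells, and Psmb11, the beta subunit of the cortical thymus epithelium, were listed at 0 in all 7 libraries. The tested genes were read between 200 and 3877 times in a library.

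No proteasome gene passed the test between cKO and Ctrl after adjustment over all genes tested. In limma, 0 of the 34 genes passed an adjusted p of 0.05, with adjusted p between 0.511 and 0.997, where 0.0306% of the 13057 genes tested in the same way passed (4 genes). Before adjustment, 3 genes were lower in cKO at p under 0.05 (Psmb6, Psmc1 and Psmd9) and 2 were higher (Psmc6 and Psmd5), where 4.73% of all genes tested were lower and 4.24% higher at that p. By the sign of the difference alone, 22 of the 34 were lower in cKO, or 64.7%, against 51.3% of all genes tested. The median log2 difference, cKO minus Ctrl, was -0.063 over the proteasome genes and -0.0077 over all genes tested. The majority of lower genes was lost when libraries were scaled otherwise. In TPM (a common sum per library) 13 of 34 were lower, with a median of 0.025. With quantile normalization 14 were lower, with a median of 0.029. Once the trend of a library with gene length was removed, 12 were lower, with a median of 0.036. The median over all genes tested also moved, to 0.070 in TPM, 0.021 with quantile normalization and 0.00047 without the length trend. In TPM the proteasome median thus stayed below that of all genes tested. In 5 genes every cKO library lay below every Ctrl library (14.7%, against 4.51% of all genes tested), and in 1 gene, Psmc6, every cKO library lay above every Ctrl library (5.62% of all genes tested). The 5 were Psmb4, Psmb6, Psmc1, Psmc5 and Psmd9. This balance turned round with the scaling. In TPM 1 gene lay below and 6 above (2.34% and 8.65% of all genes tested), with quantile normalization 2 below and 8 above (3.82% and 7.30%), and without the length trend 1 below and 10 above (3.88% and 5.03%).

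The differences were also bounded in size. The 95% intervals from limma lay within 1 log2 unit of 0 for all 34 genes and within 0.58 log2 units for 30 of them. The lowest bound was -0.67, for Psmb7, and the highest 0.57, for Psmd5. The intervals are not adjusted for the number of genes, and they cover the spread between libraries, which no label ties to separate mice. Within groups the genes were tightly measured, with a median coefficient of variation of 7.39% over the cKO libraries and 10.6% over the Ctrl libraries.

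The stretches before the transcription start of the 6 genes whose groups did not overlap are shown so that the letters read by transcription factors can be seen beside the values. They are 250 bases each, from the RefSeq promoters of the GRCm38.p6 build, 5′ to 3′ on the strand of the gene, ending at the base before the start. Capitals mark matches on either strand to an antioxidant response element core (TGACNNNGC), a CCAAT box (CCAAT), an ETS site (CCGGAAG) or a GC box (GGGCGG).
Psmb6, chr11:70525107-70525356, plus strand: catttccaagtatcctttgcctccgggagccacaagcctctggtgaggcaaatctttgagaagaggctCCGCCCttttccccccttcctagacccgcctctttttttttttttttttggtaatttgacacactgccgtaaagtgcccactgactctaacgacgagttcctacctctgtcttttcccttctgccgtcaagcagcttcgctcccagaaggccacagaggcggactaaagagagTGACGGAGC
Psmb4, chr3:94886959-94887208, minus strand: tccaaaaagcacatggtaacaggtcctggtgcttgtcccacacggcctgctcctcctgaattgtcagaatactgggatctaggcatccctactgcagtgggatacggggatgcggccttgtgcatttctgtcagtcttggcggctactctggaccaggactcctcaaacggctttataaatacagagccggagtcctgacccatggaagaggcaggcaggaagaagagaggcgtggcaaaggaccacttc
Psmc1, chr12:100109952-100110201, plus strand: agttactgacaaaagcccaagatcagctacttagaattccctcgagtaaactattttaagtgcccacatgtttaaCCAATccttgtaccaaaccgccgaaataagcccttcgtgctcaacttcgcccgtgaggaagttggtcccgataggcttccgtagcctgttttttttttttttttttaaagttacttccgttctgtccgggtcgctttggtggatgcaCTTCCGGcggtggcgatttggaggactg
Psmc5, chr11:106255935-106256184, plus strand: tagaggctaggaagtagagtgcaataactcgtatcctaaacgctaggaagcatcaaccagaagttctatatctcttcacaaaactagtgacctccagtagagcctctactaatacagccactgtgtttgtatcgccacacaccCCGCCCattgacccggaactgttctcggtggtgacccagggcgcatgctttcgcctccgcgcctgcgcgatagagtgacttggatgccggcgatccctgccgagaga
Psmd9, chr5:123227940-123228189, plus strand: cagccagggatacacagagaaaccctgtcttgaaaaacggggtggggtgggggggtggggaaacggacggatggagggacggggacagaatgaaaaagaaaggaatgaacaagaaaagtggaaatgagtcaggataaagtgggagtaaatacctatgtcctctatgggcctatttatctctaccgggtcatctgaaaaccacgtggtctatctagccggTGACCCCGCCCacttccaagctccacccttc
Psmc6, chr14:45329574-45329823, plus strand: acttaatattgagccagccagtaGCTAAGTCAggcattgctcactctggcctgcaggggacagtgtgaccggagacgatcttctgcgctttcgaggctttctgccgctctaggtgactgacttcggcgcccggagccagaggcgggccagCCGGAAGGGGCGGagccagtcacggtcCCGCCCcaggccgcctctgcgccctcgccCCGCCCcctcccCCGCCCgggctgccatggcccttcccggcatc

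In these windows the antioxidant response element core was found in Psmb6, in Psmd9, where it overlaps a GC box, and in Psmc6, whose levels stood on the other side of Ctrl from those of Psmb6 and Psmd9. Psmb4 held none of the 4 motifs. RefSeq promoters were at hand for 28 of the 34 tested genes, in 30 windows. The antioxidant response element core was in 5 of these 30 windows, or 16.7%, against 10.2% of all 32851 promoter windows of the same length. The ETS site was in 33.3% of the windows of the tested genes against 6.91% of all, the GC box in 56.7% against 32.7%, and the CCAAT box in 36.7% against 33.8%. The windows of all promoters include genes that were not tested, and no set matched for level was compared. These shares thus do not show a trait particular to proteasome genes. A match describes letters and is not a bound site. No entry was at hand for Psma8, Psmb1, Psmb2, Psmb7, Psmc3, Psmd3 and Psmd7.

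Levels are given in FPKM, fragments per kilobase of gene scaled to a library size, so that genes can be set beside each other. That size was not the number of reads assigned to genes. In cKO replicates 1 to 4 it was 1.08, 1.10, 0.991 and 0.891 times that number. In Ctrl replicates 1 to 3 it was 0.987, 0.992 and 1.03 times that number. Beta subunits had the highest median of the groups, at 92.4 FPKM. Their means over the 7 libraries ran from 68.7 FPKM for Psmb5 to 174 FPKM for Psmb4. Alpha subunits lay between 18.5 FPKM for Psma3 and 99.7 FPKM for Psma2, with a median of 86.1 FPKM. The base ATPases lay between 31.9 FPKM for Psmc6 and 74.3 FPKM for Psmc5, and the lid subunits between 20.5 FPKM for Psmd11 and 70.05 FPKM for Psmd8. The assembly chaperones were the lowest of the 34, between 6.94 FPKM for Psmd9 and 11.8 FPKM for Psmd5. The highest mean within a ring thus stood 5.40 times above the lowest in the alpha ring, 2.53 times in the beta ring and 2.33 times among the ATPases, although each ring holds its subunits in equal number. The alpha ring ratio rests on Psma3, whose reads are split with pseudogenes: with their reads added, Psma3 stood at 29.4 FPKM and the ratio was 3.40.

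**Figure D1:**
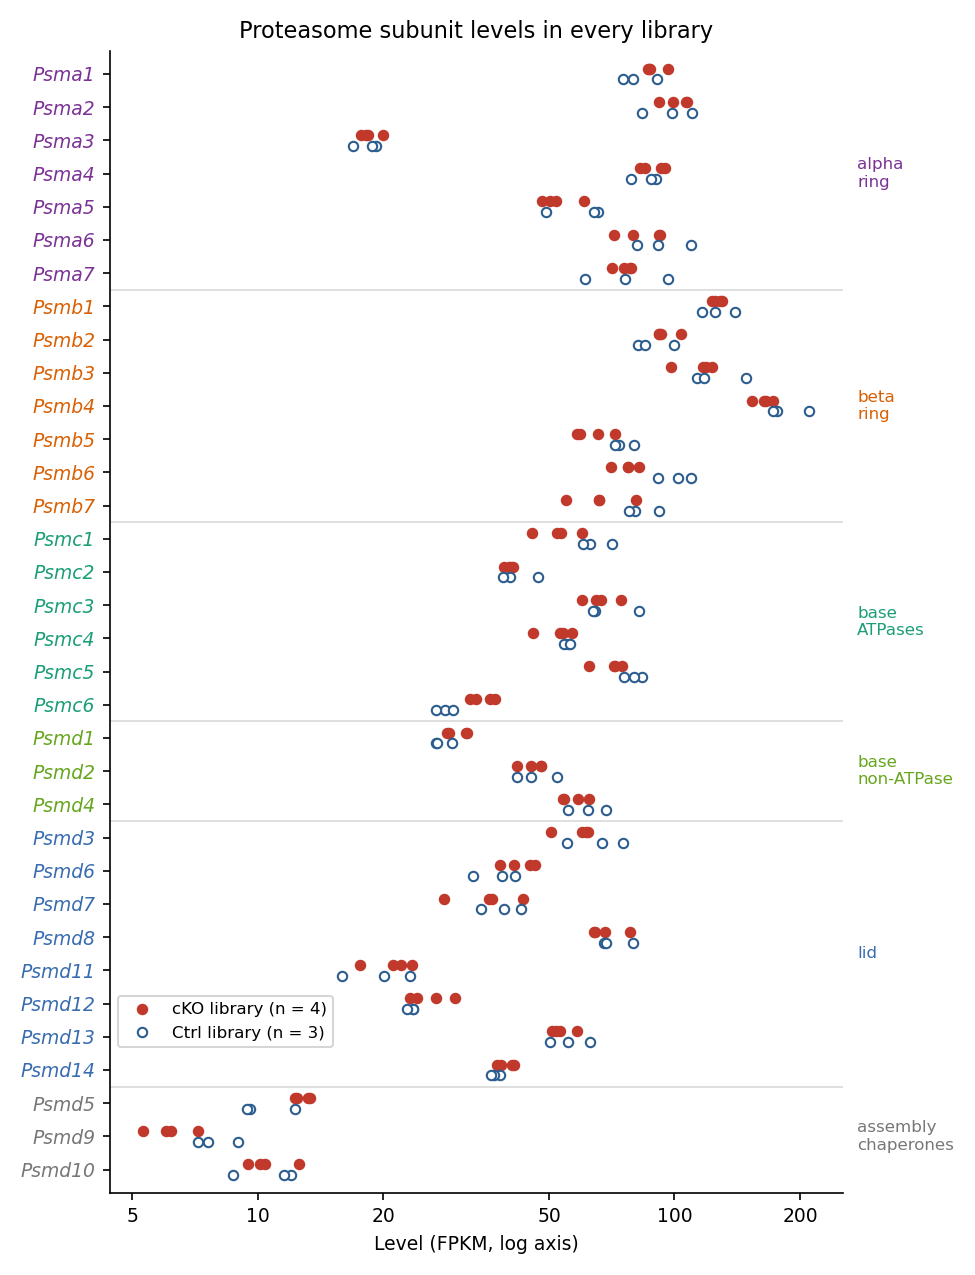
Level in FPKM (log axis) of the 34 tested proteasome genes, ordered by place in the particle, with 1 point for each of the 4 cKO libraries (filled) and the 3 Ctrl libraries (open). The clouds of both groups overlap for 28 genes and stand apart for Psmb4, Psmb6, Psmc1, Psmc5, Psmd9 and Psmc6.

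Across libraries the proteasome genes stood together most clearly in Ctrl replicate 1. There, all 34 genes lay above their own Ctrl mean on the log2 scale, with a median deviation of 0.148. The median over all genes tested was 0.015 in that library. The Ctrl mean includes replicate 1, so its high values place the other Ctrl libraries lower against that mean. In Ctrl replicate 2 the median deviation was -0.037 and 9 genes lay above, and in Ctrl replicate 3 it was -0.096 and 6 genes lay above. Among the cKO libraries the median deviation from the Ctrl mean was -0.0014, -0.076, -0.107 and 0.029 in replicates 1 to 4, with 17, 10, 9 and 19 genes above. The Ctrl libraries thus spanned a wider range of medians than the cKO libraries. Without Ctrl replicate 1 the count of genes lower in cKO was 14 of 34 instead of 22, and the median log2 difference was 0.036 instead of -0.063.

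**Figure D2:**
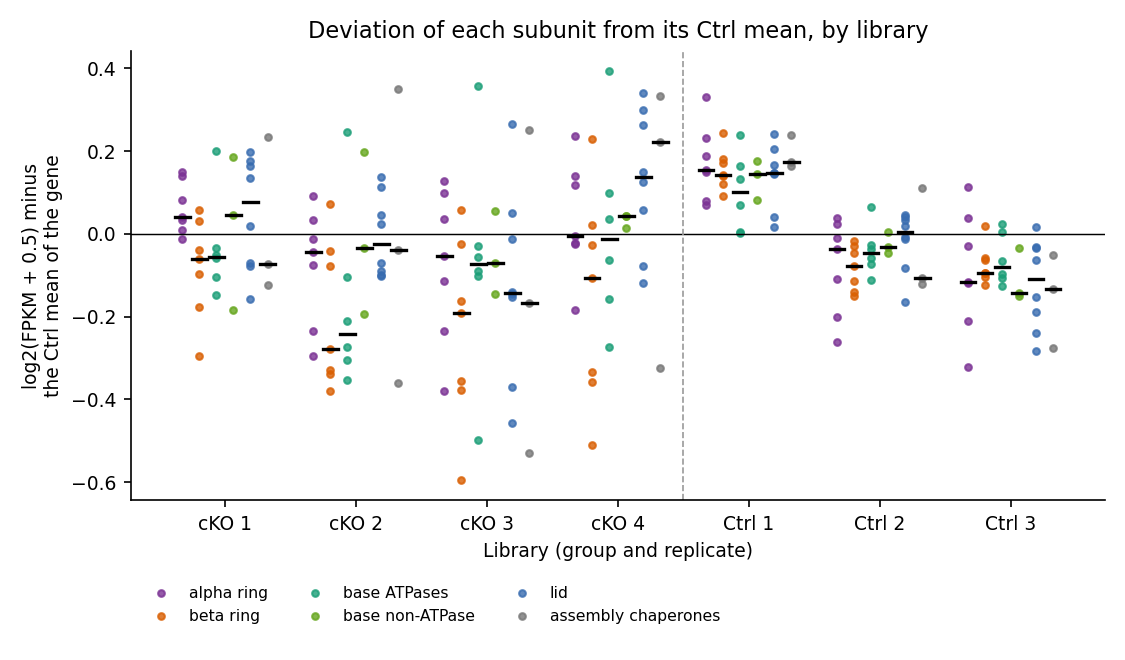
Deviation of each tested proteasome gene from its own Ctrl mean on the log2(FPKM + 0.5) scale, for the 4 cKO and the 3 Ctrl libraries, coloured by place in the particle, with black bars for the medians. In Ctrl replicate 1 all 34 genes lie above 0, and in the cKO libraries the beta ring lies lower than the alpha ring.

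These libraries are bulk RNA, in which fewer cells of a type and less RNA per cell cannot be told apart. Reads of the 36 genes made up 0.313%, 0.301%, 0.266% and 0.262% of all reads assigned to genes in cKO replicates 1 to 4, and 0.322%, 0.280% and 0.280% in Ctrl replicates 1 to 3. On the FPKM scale cKO replicate 4 was instead the highest of the cKO libraries, with a summed level of 2134 FPKM for the 36 genes. The share of mitochondrially encoded reads was 3.71%, 5.24%, 7.39% and 7.51% in the same cKO libraries and 3.88%, 5.32% and 4.19% in the Ctrl libraries, so that the 2 cKO libraries with the lowest proteasome share had the highest mitochondrial share. Of the 5 T cell markers examined, all had a lower mean in cKO, with limma adjusted p between 0.689 and 0.965. The direction was the same for all 5 fibroblast, 4 myeloid and 3 smooth muscle markers and for 5 of 6 epithelial markers. Of the 4 B and plasma cell markers 0 were lower, and of the 3 endothelial markers 1 was. The summed level of the T cell markers lay between 40.4 and 109 FPKM in cKO and between 70.4 and 146 FPKM in Ctrl, and it was highest in Ctrl replicate 1. The parts of mitochondrial reads and of T cells in the levels of proteasome genes were not tested.

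In the alpha ring, which gates the core, 3 of 7 genes were lower in cKO and 4 higher by sign. Their median log2 difference was 0.022, and the groups overlapped for all 7. Psma1 stood at 86.4, 86.9, 87.5 and 96.2 FPKM in cKO and at 90.8, 79.5 and 75.2 FPKM in Ctrl, a log2 difference of 0.13 (SE 0.11, limma adjusted p = 0.760). Only Ctrl replicate 1 reached the cKO range. Psma2, the most abundant alpha subunit, stood at 106.9, 92.04, 99.4 and 106.9 FPKM in cKO and at 110.4, 98.6 and 83.7 FPKM in Ctrl, with the ranges nested in each other. Psma5 stood at 60.5, 48.1, 50.2 and 52.0 FPKM in cKO and at 65.6, 49.2 and 64.02 FPKM in Ctrl, a log2 difference of -0.17 (SE 0.14, adjusted p = 0.744). Here Ctrl replicate 2 fell among the cKO libraries. Psma6 stood at 92.6, 79.3, 71.6 and 91.8 FPKM in cKO and at 110 FPKM in Ctrl replicate 1, 81.1 FPKM in replicate 2 and 91.5 FPKM in replicate 3, and cKO replicates 1 and 4 lay above Ctrl replicate 3.

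Psma3 had the lowest level of the alpha ring, and the table splits its reads. It stood at 18.4, 17.7, 20.01 and 18.2 FPKM in cKO and at 19.2, 16.9 and 18.8 FPKM in Ctrl, a log2 difference of 0.022 (SE 0.099, limma adjusted p = 0.964). Gm13835, a pseudogene that the table annotates with the Psma3 protein, held 567, 541, 605 and 542 reads in cKO and 703, 544 and 439 reads in Ctrl. Psma3 itself held 1087, 992, 966 and 842 reads in cKO and 1239, 944 and 1011 reads in Ctrl. Over all libraries the pseudogene had 55.7% of the number of reads given to Psma3, so the level of Psma3 is uncertain. In all, 24 pseudogenes carried the protein name of 1 of 13 proteasome genes, and 17 of them had reads. Their summed reads passed 5% of the reads of the gene for Psma3 and for Psma5 (15.0%). With pseudogene reads added to the genes, an alternative chosen after seeing the data, the log2 difference of Psma3 was 0.088 and that of Psma5 -0.17, and 0 of the 34 genes passed.

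In the beta ring 6 of 7 genes were lower in cKO by sign and none passed the test. The median log2 difference of the ring was -0.18, and it was -0.092 under TPM, -0.038 after quantile normalization and -0.022 after removal of the length trend. The 3 catalytic subunits had the lowest differences of the ring. Psmb6, which carries the caspase-like site, lies on chromosome 11 from 70416116 to 70418684 on the plus strand of GRCm39. Psmb6 stood at 82.0, 77.3, 77.4 and 70.6 FPKM in cKO and at 110, 91.3 and 102 FPKM in Ctrl, and every cKO library lay below every Ctrl library. Its log2 difference of -0.39 was the lowest of all 34 genes on the deposited scale (SE 0.12, limma adjusted p = 0.511, unadjusted p = 0.0096). The groups stayed apart for Psmb6 under TPM, after quantile normalization, after removal of the length trend and after division by the total of recovered reads. Leaving out a library cannot bring separated groups together, so it was no check of this. The difference of Psmb6 was -0.30 under TPM, -0.29 after quantile normalization and -0.25 after removal of the length trend. The median over all genes tested rose as well, from -0.0077 on the deposited scale to 0.070, 0.021 and 0.00047 in these settings.

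Psmb7, which carries the trypsin-like site, stood at 80.8, 65.99, 54.9 and 65.9 FPKM in cKO and at 91.7, 80.5 and 77.7 FPKM in Ctrl, a log2 difference of -0.32 (SE 0.15, limma adjusted p = 0.573). Of the cKO libraries, replicate 1 reached the Ctrl range. Psmb5, which carries the chymotrypsin-like site that proteasome inhibitors target, stood at 71.9, 59.2, 65.6 and 58.4 FPKM in cKO and at 80.03, 73.5 and 71.9 FPKM in Ctrl, a log2 difference of -0.24 (SE 0.12, adjusted p = 0.591). Again cKO replicate 1 touched the lowest Ctrl library. Without the length trend the difference was -0.18 for Psmb7 and -0.071 for Psmb5. Psmb4, a subunit without a catalytic site and the most abundant of the 34 genes, stood at 164, 153, 166 and 173 FPKM in cKO and at 210.5, 176 and 173 FPKM in Ctrl, a log2 difference of -0.18 (SE 0.13, adjusted p = 0.692). Without the length trend its difference was -0.022. The groups of Psmb4 were apart by a narrow margin, between 172.5 FPKM in cKO replicate 4 and 172.8 FPKM in Ctrl replicate 3. The other subunits without a catalytic site differed by -0.0028 for Psmb1, 0.10 for Psmb2 and -0.14 for Psmb3 on the log2 scale, and their groups overlapped.

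The position of the beta ring against the alpha ring does not depend on the depth of a library, since both are measured in it. The median deviation of the beta ring minus that of the alpha ring was -0.103, -0.233, -0.140 and -0.0999 in cKO replicates 1 to 4 and -0.013, -0.039 and 0.022 in Ctrl replicates 1 to 3. All cKO libraries lay below all Ctrl libraries. After removal of the length trend these values were -0.082, -0.203, -0.088 and -0.062 in cKO and -0.0055, -0.034 and 0.011 in Ctrl. The summed FPKM of Psmb5, Psmb6 and Psmb7 over that of Psmb1 to Psmb4 was 0.466, 0.415, 0.412 and 0.369 in cKO and 0.470, 0.494 and 0.512 in Ctrl. Both contrasts were chosen after the values of the genes were seen and are given without a test.

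Each catalytic subunit has a counterpart that takes its place in the immunoproteasome, the form that serves antigen presentation. Psmb9, which replaces Psmb6, stood at 84.6, 64.2, 79.6 and 89.2 FPKM in cKO and at 109 FPKM in Ctrl replicate 1, 81.5 FPKM in replicate 2 and 80.1 FPKM in replicate 3. Psmb10, which replaces Psmb7, stood at 177, 132, 195 and 180.3 FPKM in cKO and at 256, 198 and 162 FPKM in Ctrl. Psmb8, which replaces Psmb5, stood at 129.6 FPKM in cKO replicate 1 and 85.3, 145 and 121 FPKM in the others, and at 189.99, 148 and 151 FPKM in Ctrl, and its groups did not overlap. The ratio of Psmb9 to Psmb6 was 1.04 ± 0.177 in cKO (SD, n = 4) and 0.891 ± 0.105 in Ctrl (SD, n = 3). The ratio of Psmb10 to Psmb7 was 2.62 ± 0.7001 in cKO and 2.45 ± 0.354 in Ctrl, and the ratio of Psmb8 to Psmb5 was 1.88 ± 0.339 in cKO and 2.16 ± 0.187 in Ctrl. The exact 2-sided permutation p of the 3 ratios was 0.286, 0.8 and 0.286, in that order, and 0.429, 0.8 and 0.429 adjusted over the 3 ratios. This 2-sided p is 2 times the smaller tail, and over 35 splits the smallest value of that form is 0.0571. The test in this form could thus not pass 0.05 and says nothing of whether the ratios differ. The ranges of both groups overlapped for each ratio.

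**Figure D3:**
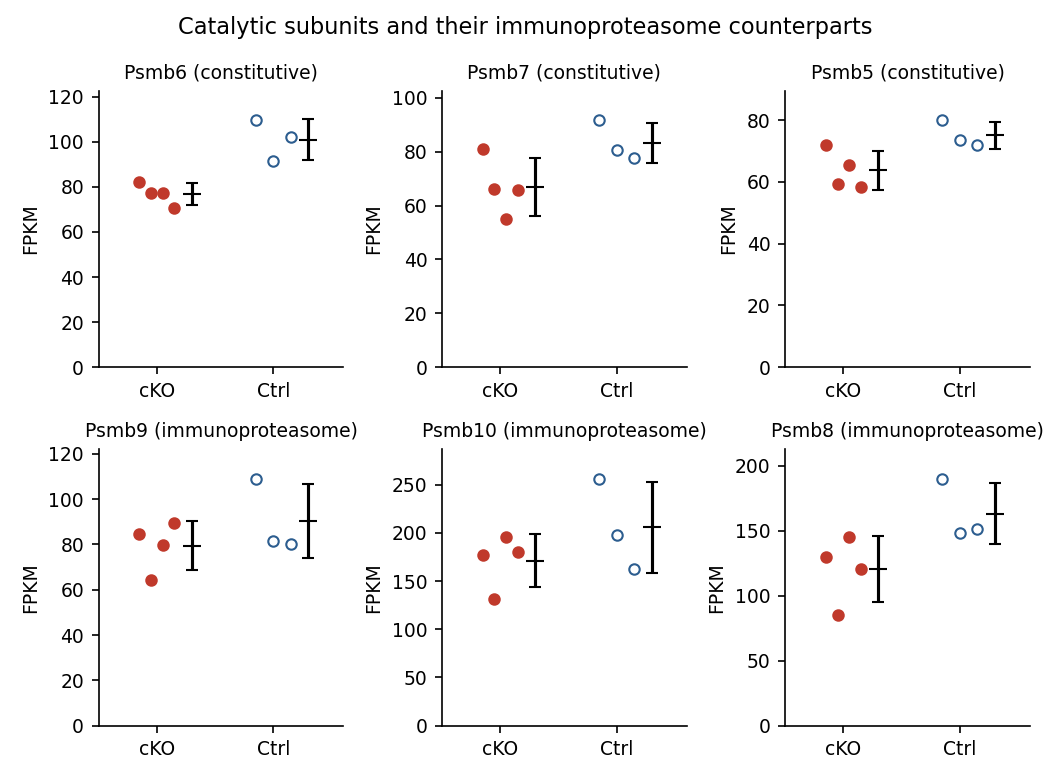
Level in FPKM (axes from 0) of the catalytic subunits Psmb6, Psmb7 and Psmb5 (top) and of their immunoproteasome counterparts Psmb9, Psmb10 and Psmb8 (bottom), with 1 point per library, 4 cKO libraries on the left and 3 Ctrl libraries on the right of each panel. Bars give the mean and SD, and among the catalytic subunits only Psmb6 shows groups that do not overlap.

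Among the 6 ATPases of the base 5 were lower in cKO by sign and none passed. Their median log2 difference was -0.075, and it turned to 0.013 under TPM, 0.018 after quantile normalization and 0.028 after removal of the length trend. The median over all genes tested was 0.070, 0.021 and 0.00047 in these settings. Psmc1, an ATPase that takes part in opening the gate of the core, stood at 60.0, 52.1, 45.5 and 53.3 FPKM in cKO and at 70.8, 62.9 and 60.3 FPKM in Ctrl, a log2 difference of -0.30 (SE 0.13, limma adjusted p = 0.554). Psmc5 stood at 72.0, 62.3, 74.9 and 71.5 FPKM in cKO and at 83.7, 75.8 and 80.02 FPKM in Ctrl, a log2 difference of -0.19 (SE 0.11, adjusted p = 0.649). Without the length trend the difference was -0.19 for Psmc1 and -0.058 for Psmc5. As for Psmb4, all cKO libraries lay below all Ctrl libraries, but not after TPM rescaling, quantile normalization, removal of the length trend or division by the total of recovered reads. Psmc6 went the other way and had the highest difference of the 34 genes in the main fit on the deposited scale. After removal of the length trend Psmd5 stood higher, at 0.363 against 0.352 for Psmc6. Psmc6 stood at 32.4, 33.5, 36.2 and 37.1 FPKM in cKO and at 28.2, 29.4 and 26.8 FPKM in Ctrl. Its log2 difference was 0.30 (SE 0.0996, limma adjusted p = 0.513, unadjusted p = 0.017), and its groups stayed apart under the same settings as those of Psmb6. Psmc6 lies on chromosome 14 from 45567280 to 45587138 on the plus strand. The differences of Psmc2, Psmc3 and Psmc4 lay between -0.082 and -0.062, with overlapping groups.

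The other subunits of the base and those of the lid stood on both sides of Ctrl. Of these 11 genes 6 were lower and 5 higher by sign, and the groups overlapped in each. Differences ran from -0.16 to 0.18 on the log2 scale, with a median of -0.023 that turned to 0.065 under TPM and 0.074 after quantile normalization. For all genes tested the median was 0.070 and 0.021 in these settings. Psmd6, a structural subunit of the lid, stood at 41.2, 38.1, 45.1 and 46.2 FPKM in cKO and at 41.4, 38.7 and 32.8 FPKM in Ctrl, a log2 difference of 0.18 (SE 0.12, limma adjusted p = 0.690). Psmd8, the most abundant lid subunit, stood at 64.2, 68.2, 64.4 and 78.2 FPKM in cKO and at 79.3, 67.7 and 68.5 FPKM in Ctrl, a log2 difference of -0.064 (SE 0.12, adjusted p = 0.905). Both lid genes spread over overlapping ranges in cKO and Ctrl. Psmd14, the deubiquitinase of the lid, averaged 39.5 ± 1.78 FPKM in cKO (SD, n = 4) and 37.1 ± 0.957 FPKM in Ctrl (SD, n = 3). Psmd4, which binds ubiquitin chains, averaged 57.4 ± 3.996 FPKM in cKO and 62.02 ± 6.40 FPKM in Ctrl. Psmd1 and Psmd2, the large scaffolds of the base, differed by 0.12 and -0.023 on the log2 scale.

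The assembly chaperones of the base stood on both sides. Psmd9 stood at 7.21, 6.04, 5.31 and 6.21 FPKM in cKO and at 8.96, 7.21 and 7.60 FPKM in Ctrl, a log2 difference of -0.33 (SE 0.13, limma adjusted p = 0.542). Its groups were apart only by the small gap between cKO replicate 1, at 7.209 FPKM, and Ctrl replicate 2, at 7.214 FPKM. Psmd5 stood at 12.3, 13.3, 12.4 and 13.2 FPKM in cKO and at 12.3, 9.60 and 9.42 FPKM in Ctrl, a log2 difference of 0.29 (SE 0.12, adjusted p = 0.542), with Ctrl replicate 1 inside the cKO range. Psmd10 (gankyrin) averaged 10.6 ± 1.33 FPKM in cKO (SD, n = 4) and 10.8 ± 1.78 FPKM in Ctrl (SD, n = 3).

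**Figure D4:**
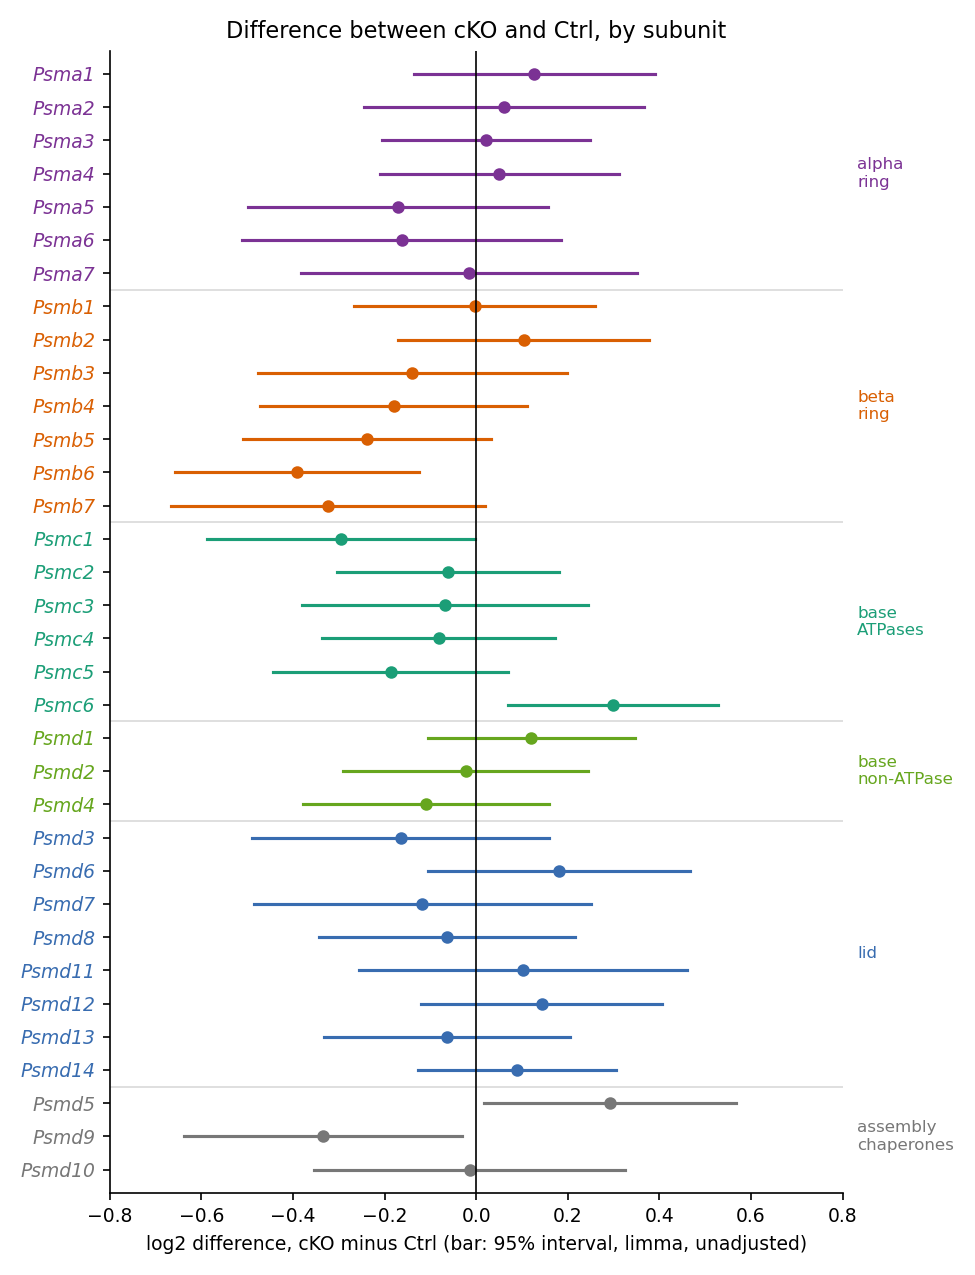
Difference between cKO and Ctrl on the log2(FPKM + 0.5) scale for each of the 34 tested proteasome genes (point) with its unadjusted 95% interval from limma (bar). Intervals leave out 0 for Psmb6, Psmc1, Psmd9, Psmc6 and Psmd5, none of which passed after adjustment, and all lie within 1 log2 unit.

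Gene length moved with these differences. Across the 34 genes the Spearman correlation between length and log2 difference was 0.298, and across the 13057 genes tested it was 0.304 (across genes, which are not independent replicates). The median proteasome gene was 1479 bases long, and the median of all genes tested was 3138 bases. The 5 proteasome genes under 1000 bases had a median difference of -0.14, where all genes tested of that length had -0.16. The 12 from 1000 to 1500 bases had -0.095, against -0.12 for all genes of that length, and the 17 above 1500 bases had -0.023, against 0.016.

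**Figure D5:**
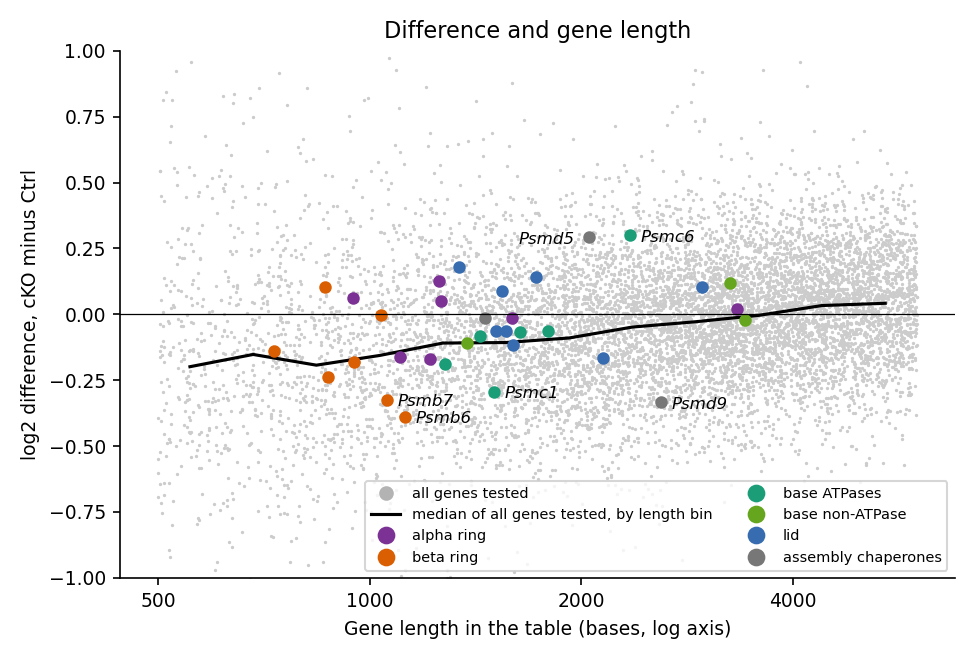
Difference between cKO and Ctrl (log2) against gene length in bases (log axis) for the 34 proteasome genes (coloured by place in the particle) and for the tested genes between 500 and 6000 bases long with differences within 1 log2 unit (grey), with the median of the tested genes in bins of length as a black line. The labelled genes Psmb6, Psmb7, Psmc1 and Psmd9 lie below that line, and Psmc6 and Psmd5 lie above it.

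Of 37 other genes of the proteasome and ubiquitin pathway, 36 were matched and tested, and 0 passed in limma in either direction. By sign 19 were lower and 17 higher, and the median log2 difference was -0.0018. In 3 of the 36 every cKO library lay below every Ctrl library (Sem1, Psmb8 and Psmg4). In 3 every cKO library lay above (Usp14, Psme4 and Ecpas). Of all genes tested 4.51% lay below and 5.62% above in this way. Sem1, the smallest lid subunit, stood at 83.1 ± 19.9 FPKM in cKO (SD, n = 4) and 125 ± 4.52 FPKM in Ctrl (SD, n = 3), and its groups did not overlap. For Sem1 the log2 difference, cKO minus Ctrl, was -0.61 (SE 0.18, limma adjusted p = 0.511). Sem1 is 491 bases long, and all genes tested under 1000 bases had a median difference of -0.16. The part of gene length in the difference of Sem1 was not tested. Usp14, a deubiquitinase that docks on the base, stood at 9.80 ± 0.356 FPKM in cKO and 7.70 ± 0.485 FPKM in Ctrl, a log2 difference of 0.33 (SE 0.096, adjusted p = 0.511), with every cKO library above every Ctrl library. Psmb8 differed by -0.46 (adjusted p = 0.554), and Psme4, a proteasome activator, by 0.27 (adjusted p = 0.557). The core assembly factors Pomp and Psmg1 to Psmg4 lay between -0.28 and 0.026. Nfe2l1 stood at 15.1 ± 2.13 FPKM in cKO and 18.3 ± 1.64 FPKM in Ctrl (log2 difference -0.27, adjusted p = 0.585), and Ddi2, the protease that activates it, differed by -0.13 (adjusted p = 0.799).

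As a check of the labels, Stk24 fell to 3.34 ± 0.435 FPKM in cKO (SD, n = 4), against 19.9 ± 0.926 FPKM in Ctrl (SD, n = 3). The log2 difference was -2.42 (SE 0.12, limma adjusted p = 0.00043). Epithelial markers summed to between 4266 and 6722 FPKM in cKO and between 5240.4 and 5598 FPKM in Ctrl. The 5 small intestinal markers summed to between 16015 and 19999 FPKM in cKO and between 19270.1 and 34068 FPKM in Ctrl, whereas the 5 large bowel markers summed to between 34.3 and 58.9 FPKM in cKO and between 25.0 and 48.1 FPKM in Ctrl, with Hoxd13 listed at 0 in every library. The labelled tissue, large bowel, is therefore not the one whose markers prevail. For other cell types the summed markers reached at most 7.30 FPKM in cKO and 4.34 FPKM in Ctrl (B and plasma cells), 3.48 FPKM in cKO and 3.16 FPKM in Ctrl (myeloid cells), and 7.66 FPKM in cKO and 5.98 FPKM in Ctrl (fibroblasts). Markers of smooth muscle reached 0.174 FPKM in cKO and 0.473 FPKM in Ctrl, and those of endothelium 0.771 FPKM in cKO and 0.676 FPKM in Ctrl.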

How the data were processed

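The data were 1 table of 7 libraries, 4 cKO and 3 Ctrl. The FPKM values were deposited by the authors, 1 per gene and library. Reads were aligned with HISAT2, per the submitters' processing notes. The sources used here do not give the counting program, the strand setting or the annotation release, and the chromosome accessions in the table are those of GRCm39. Multiplying FPKM by gene length and dividing by the smallest step of the library gave whole reads, within 0.01, for 100.0% of the values above 0. Libraries held between 14659708 and 19659622 reads on genes. A gene of 1 kb with 3 reads stood at 0.155 to 0.216 FPKM.

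Genes whose mean over the 7 libraries reached 0.5 FPKM were compared on log2(FPKM + 0.5), which understates changes of low genes, with limma 3.58.1 in R 4.3.3 (lmFit, eBayes with a trend, 2-sided, no covariate), cKO minus Ctrl, with Benjamini-Hochberg adjustment over all genes tested. Single ratios were compared with exact permutation tests over 35 splits (scipy 1.17.1). The fit was tested on simulated data. No label says that libraries came from separate mice, so p-values measure the spread between libraries, which may be technical. Same-numbered libraries were not treated as pairs, and the deposited columns give the 2 groups no shared numbers. The deviations of same-numbered libraries correlated at 0.115, -0.087 and -0.129, values too few to decide on pairing. The genes and lists were chosen with earlier results of these data known. Values in every library were to be given for the catalytic subunits, the 3 genes of smallest p and those of highest and lowest level among Psma, Psmb, Psmc and Psmd genes, and in the pathway list for the 4 of smallest p, as group means.
Alternatives were other pseudocounts (0.1 and 1), filters, scalings, variance models, array weights, recovered reads with limma voom (at least 10 reads in 3 libraries), removal of the length trend (loess, span 0.3), protein-coding genes only, the replicate number as a block, and leaving out each library. Promoters were taken from RefSeq on GRCm38.p6. Overlapping genes and pseudogenes can share reads with their partners.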

Additional observations from a re-analysis of the deposited data

Results flagged for a closer look

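In the cKO group 1 library stood far from the other 3 for 4 of 82 values examined, a number near the 1 in 20 that chance gives. Psma1 was at 96.2 FPKM and Psmb2 at 104 FPKM in cKO replicate 4, above the other cKO libraries. Psmd3, a lid subunit, was at 50.5 FPKM and the shuttle factor Rad23b at 27.6 FPKM in cKO replicate 3, below the other cKO libraries.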

How the results depend on the processing

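Under all 21 alternatives 0 of the 34 proteasome genes passed in limma, with a smallest adjusted p of 0.316. Of the 16 genes given with every library, 13 kept 1 direction. Other filters, other variance models and protein-coding genes only leave the log2 differences unchanged, so these alternatives could not turn a direction. The number of all tested genes that passed was 1 with a pseudocount of 0.1, without a filter, with a mean of at least 1 FPKM and after removal of the length trend, and 2 among protein-coding genes. TPM left 13 proteasome genes lower in cKO, 3 at unadjusted p under 0.05, and 1 below and 6 above Ctrl without overlap. It also moved the median over all genes tested to 0.070. Quantile normalization left 14 lower, a beta ring median of -0.038, and 2 below and 8 above. Removal of the length trend left 12 lower, medians of 0.036 over all proteasome genes, -0.022 in the beta ring and 0.028 in the ATPases, and 1 below and 10 above. Recovered reads with voom left 2 at unadjusted p under 0.05, and 1 below and 2 above, and a fit without a variance trend left 3 at that p. Psmd8 turned to 0.024 under TPM, 0.038 after quantile normalization and 0.044 after removal of the length trend. The causes were not tested.

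With the replicate block 0 of all genes tested passed, and 2 proteasome genes had an unadjusted p under 0.05. The replicate numbers were not shown to pair the libraries.

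Leaving out 1 library at a time gave 1 to 7 passing genes of all tested (7 without cKO replicate 1), 14 to 25 proteasome genes lower in cKO (14 without Ctrl replicate 1), 1 to 6 at unadjusted p under 0.05, and a median from -0.11 to 0.036. The alpha ring median ran from -0.045 to 0.091, the beta ring median from -0.23 to -0.090, the ATPase median from -0.12 to -0.030 and that of the other base and lid subunits from -0.094 to 0.065. Between 5 and 7 genes lay below Ctrl without overlap and between 1 and 6 above. Of all genes tested 5.31% to 9.4% lay below and 6.98% to 9.68% above in these fits. Leaving out a library cannot bring separated groups together, so these counts could only stay or rise. Log2 differences ran from -0.045 to 0.15 for Psma2, from -0.033 to 0.057 for Psma3 and from -0.13 to 0.0091 for Psmd8.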
